A study of Mus musculus with 4 samples.

Results

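The mitochondrial ribosomal proteins were taken as the genes of the deposited expression table whose symbol begins with Mrpl or Mrps followed by a digit. The rule found 78 of 22063 genes, 49 with a large-subunit symbol (Mrpl) and 29 with a small-subunit symbol (Mrps). All 78 passed the filter on low counts, which left 11448 genes to be tested. RNA came from ID8, a cancer cell line derived from mouse ovarian surface epithelium, without any other treatment named in the labels. The shCtrl group (2 libraries, genotype labelled wild type) and the shUSP9X group (2 libraries, labelled USP9X knockdown) were compared to see how depletion of the deubiquitylating enzyme USP9X changed the transcriptome. The knockdown used lentiviral short hairpin RNAs, and neither the hairpin behind these libraries nor separate cultures are given in the sources used here. The p-values therefore measure the spread between libraries, which may be technical.

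The mitochondrial ribosome, or mitoribosome, makes the few membrane proteins of the respiratory chain that are encoded in mitochondrial DNA. Its RNAs are transcribed inside the organelle, whereas all its proteins are encoded in the nucleus, made in the cytosol and imported. The large subunit forms peptide bonds and the small subunit decodes the mRNA, and both combine proteins inherited from the bacterial ribosome with proteins found only in mitochondria.

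The libraries held 17232006 and 15611363 estimated read counts in shCtrl and 19978889 and 17021261 in shUSP9X. Usp9x itself (ENSMUSG00000031010, chromosome X) was at 298 and 282 CPM (reads scaled to a common library size by the trimmed mean of M-values) in shCtrl and at 19.7 and 20.5 in shUSP9X. The knockdown was therefore present in both labelled libraries, with a log2 fold change of -3.85 (SE 0.06, adjusted p = 4.66e-26, edgeR quasi-likelihood test), or -2.34 and -2.14 under the 2 corrections for GC content and transcript length described below. Of 10 markers of ovarian surface epithelium and mesothelium, 8 were above 3 counts in every library. These moved in both directions with the group (log2 fold change, adjusted p under 0.05 in edgeR). Krt8 (0.92), Krt18 (0.64), Vim (0.39) and Krt19 (0.12) were higher, and Wt1 (-0.52), Cdh2 (-0.50) and Msln (-0.47) were lower. Upk3b (0.05) was not called. Krt7 was at 0 counts in both shCtrl libraries and at 2 and 3 in shUSP9X, and Lhx9 was at 3 to 11 counts in the 4 libraries.

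Markers of other cells also moved with the group. The summed level of 6 leukocyte markers was 0 and 0.0632 CPM in shCtrl and 6.17 and 6.53 CPM in shUSP9X. Itgam, the most abundant, was at 0 counts in both control libraries and at 72 and 75 counts in the knockdown. Csf1r and Ptprc were likewise seen only in shUSP9X among these 4 libraries, at 13 to 29 counts, Cd3e was at 0 in all of them, Lyz2 was at 0, 0, 0 and 2 counts and Cd79a at 0, 1, 4 and 2 counts. The fibroblast genes Dcn and Pdgfra summed to 184 and 180.2 CPM in shCtrl and to 124.9 and 122.9 CPM in shUSP9X. Dcn made up most of that sum (log2 fold change -0.46, adjusted p = 1.77e-09, edgeR). Pdgfra went from 15.7 and 13.6 CPM to 1.72 and 2.31 CPM (log2 fold change -2.87, adjusted p = 6.65e-13, edgeR). Of 3 endothelial markers, Cdh5 and Kdr were at 0 in every library and Pecam1 was at 9 to 19 counts. The red cell genes Hba-a1 and Hbb-bs were at 0 in 3 libraries and summed to 0.475 CPM in the other. The part of these transcripts in the results on the mitoribosome was not tested. In such bulk RNA, fewer cells with a transcript and less RNA per cell cannot be told apart.

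Promoter sequences show what the members share upstream of their start. Nuclear genes for mitochondrial proteins are known targets of nuclear respiratory factor 1 (NRF1), of GA-binding protein (GABP, an ETS family factor) and of YY1. The letters searched, on both strands, were GCATGCGC for NRF1, CCGGAAG for GABP, AAGATGGC for YY1 and CACGTG for the E-box bound by MYC and related factors. RefSeq promoters of GRCm38.p6, running from 250 bases before to 50 bases after the start, were at hand for 69 of the 78 members. The 3 copies of the bacterial S18 family, the member with the largest rise among those without a match and one of the members that fell are printed 5′ to 3′ on the coding strand, with matching letters in capitals. The windows lie at chr17:35916391-35916690 (minus strand, Mrps18b), chr17:46110754-46111053 (plus, Mrps18a), chr5:100798509-100798808 (plus, Mrps18c), chr13:118387203-118387502 (minus, Mrps30) and chr5:31613701-31614000 (plus, Mrpl33).
Mrps18b: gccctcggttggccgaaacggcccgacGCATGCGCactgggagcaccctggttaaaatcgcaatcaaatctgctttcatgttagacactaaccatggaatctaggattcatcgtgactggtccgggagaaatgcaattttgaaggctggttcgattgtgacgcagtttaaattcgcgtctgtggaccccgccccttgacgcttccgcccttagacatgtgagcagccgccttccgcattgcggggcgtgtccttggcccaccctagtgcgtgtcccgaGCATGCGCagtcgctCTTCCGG
Mrps18a: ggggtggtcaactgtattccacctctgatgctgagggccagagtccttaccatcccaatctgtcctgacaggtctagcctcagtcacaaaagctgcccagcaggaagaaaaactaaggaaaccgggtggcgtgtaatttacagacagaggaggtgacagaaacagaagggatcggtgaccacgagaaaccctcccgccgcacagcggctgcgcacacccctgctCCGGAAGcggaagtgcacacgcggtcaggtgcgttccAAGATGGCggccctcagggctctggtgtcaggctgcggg
Mrps18c: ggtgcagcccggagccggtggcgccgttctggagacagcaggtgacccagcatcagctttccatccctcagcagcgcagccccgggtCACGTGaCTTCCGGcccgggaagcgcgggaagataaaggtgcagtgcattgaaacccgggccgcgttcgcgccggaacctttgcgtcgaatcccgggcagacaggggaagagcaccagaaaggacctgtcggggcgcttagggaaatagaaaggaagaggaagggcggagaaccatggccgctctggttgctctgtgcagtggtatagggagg
Mrps30: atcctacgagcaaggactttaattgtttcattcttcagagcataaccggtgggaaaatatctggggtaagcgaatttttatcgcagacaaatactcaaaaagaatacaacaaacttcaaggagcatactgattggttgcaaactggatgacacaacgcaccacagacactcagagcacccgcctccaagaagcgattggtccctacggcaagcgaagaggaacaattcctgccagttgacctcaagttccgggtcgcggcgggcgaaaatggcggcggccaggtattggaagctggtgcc
Mrpl33: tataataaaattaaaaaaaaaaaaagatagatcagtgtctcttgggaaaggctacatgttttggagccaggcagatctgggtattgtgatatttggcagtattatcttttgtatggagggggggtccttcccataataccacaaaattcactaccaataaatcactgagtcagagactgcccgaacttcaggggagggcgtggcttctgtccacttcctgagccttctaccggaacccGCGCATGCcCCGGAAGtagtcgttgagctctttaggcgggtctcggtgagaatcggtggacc

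Mrps18b carries the NRF1 letters at 2 places and a GABP match, and Mrpl33 also holds both kinds of match. Mrps18a has the GABP and YY1 letters, Mrps18c has the GABP and E-box letters, and Mrps30 has none of these. Over the 69 promoters, the GABP letters stood in 25 (36.2%), against 9.12% of 27025 RefSeq promoters and 19.7% of the 9098 promoters of genes tested here. The YY1 letters stood in 12 (17.4%, against 2.88% of all promoters and 5.11% of those of tested genes) and the NRF1 letters in 8 (11.6%, against 2.81% and 5.81%). The E-box stood in 5 (7.25%, against 7.24% and 10.4%). At least 1 of the NRF1, GABP and YY1 motifs was found in 37 of 69 member promoters (53.6%), against 13.8% of all promoters and 28% of those of tested genes. A match is a description of letters only, and the GABP and YY1 searches can share the bases AAG.

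Most mitoribosomal protein mRNAs were more abundant after USP9X knockdown, by a modest amount. At an adjusted p under 0.05, 53 of 78 rose, 2 fell and 23 were not called, whereas 33.8% of all genes tested were called higher and 33.6% lower. The median log2 fold change of the members was 0.36 (interquartile range 0.15 to 0.58), a 1.28-fold change, and that of all genes tested was -0.00. Under the 2 corrections for GC content and length described below, the member median fell to 0.19 and 0.18 (0.04 and 0.05 for all genes). With them, 42 and 41 members were higher (35.7% and 36.1% of all genes), and 8 and 7 were lower (27.7% and 27.5%). Both shUSP9X libraries lay above both shCtrl libraries in 64 members (41.2% of all genes) and below them in 3 (41% of all genes). With an unadjusted p under 0.05 and a fold above 1.5, 16 members were higher (10.8% of all genes) and 0 were lower (18.7% of all genes). Without that fold limit, 2 members were lower at an unadjusted p under 0.05 in edgeR, and DESeq2 called 1 lower at an adjusted one. Of all 11448 genes, at least 33.6% were lower at the unadjusted p, and DESeq2 called 3237 lower. Member transcripts took 0.336% and 0.331% of all counts in shCtrl and 0.43% and 0.426% in shUSP9X.

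**Figure D1:**
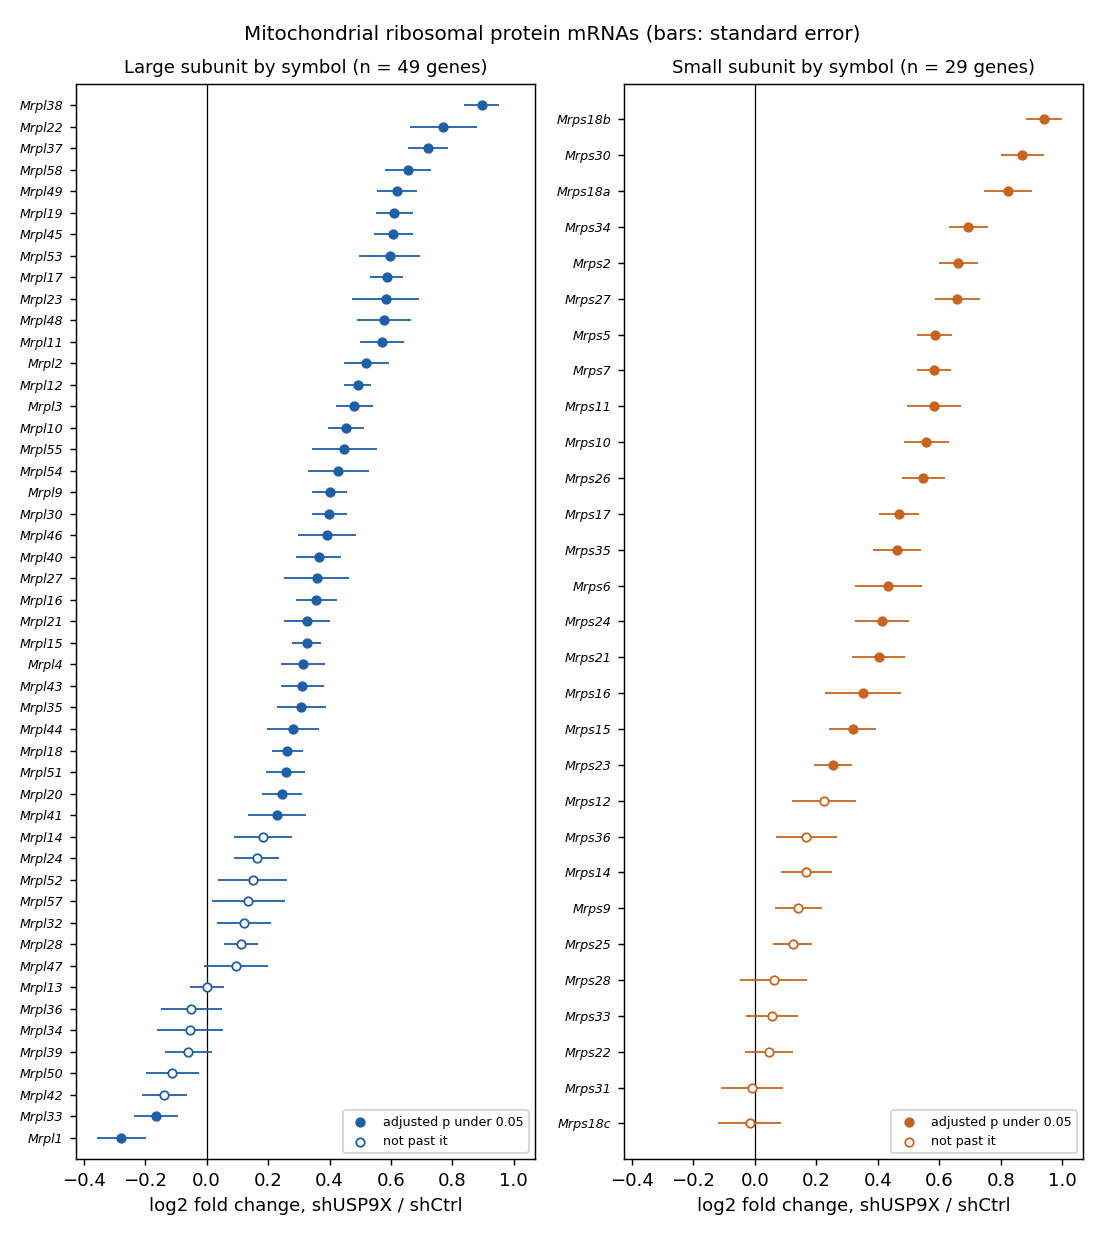
The x axis gives the log2 fold change (shUSP9X over shCtrl) of the 49 large-subunit and 29 small-subunit genes by symbol, with standard errors as bars; filled points passed an adjusted p of 0.05 and open points did not. Nearly all points lie to the right of 0, up to 0.90 for Mrpl38 and 0.94 for Mrps18b, and the filled points left of 0 are Mrpl1 and Mrpl33.

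Large and small subunits are given side by side, with no test of a difference. Of the 49 large-subunit genes by symbol, 34 rose and 2 fell, and their median (log2 fold change) was 0.33. Of the 29 small-subunit genes, 19 rose and 0 fell, with a median of 0.41. None of them was lower at an unadjusted p under 0.05 in edgeR or called lower in DESeq2. For comparison, DESeq2 called 3237 of all 11448 genes lower. Under the corrections for GC content and length described below, 26 and 26 large-subunit genes were higher and 7 and 6 lower (medians 0.18 and 0.19), and 16 and 15 small-subunit genes were higher and 1, Mrps28, lower under each (medians 0.24 and 0.17). Of all genes tested, 33.8% were higher and 33.6% lower as counted. With the corrections 35.7% and 36.1% of all genes were higher and 27.7% and 27.5% lower. Symbols do not match the structure for a few members: Mrps30 and Mrps18a are large-subunit proteins (mL65 and mL66), and Mrps36 belongs to the 2-oxoglutarate dehydrogenase complex. Grouped by structure, 36 of 51 large-subunit genes rose and 2 fell (median 0.36), and 17 of 26 small-subunit genes rose and 0 fell (median 0.41). Mrps36 was at 21.9 and 20.9 CPM in shCtrl and at 24.5 and 23.5 CPM in shUSP9X and was not called (0.17 on the log2 scale, SE 0.10, adjusted p = 0.141, edgeR). The summed large-subunit FPKM (a fragment density that allows for transcript length and library size) was 2.14 and 2.21 times that of the small subunit in shCtrl and 2.002 and 2.03 times in shUSP9X. The groups did not overlap in that ratio, but 2 libraries against 2 allow no exact permutation p below 0.333. The order of the subunit medians turned when GC content and length were corrected with the transcript nearest to the length implied by FPKM, to 0.19 for large and 0.17 for small.

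Levels per length differed widely between members. In FPKM, Mrpl12, the stalk protein that recruits translation factors, was highest, at 108.2 and 108.9 in shCtrl and 152 and 147.3 in shUSP9X. Mrpl17, at the exit tunnel, was at 92.6 and 86.7 in shCtrl and 134.3 and 136.7 in shUSP9X. Mrpl30 was at 94.3 and 94 FPKM in shCtrl and 121.2 and 123.2 in shUSP9X. These members, ranked by the mean over all 4 libraries, were higher in both knockdown libraries than in either control library. Ranked in shCtrl alone, Mrpl33 came second, at 99.8 and 99.4 FPKM, and it was lower in shUSP9X, at 85 and 88.8 FPKM. Mrpl57 was lowest, between 5.21 and 5.99 FPKM over the 4 libraries, followed by Mrps16 (5.24 to 7.68) and Mrpl47 (6.78 to 8.22). The median member was at 32.8 and 33.8 FPKM in shCtrl and at 40.5 and 39.8 in shUSP9X, whereas the median of all tested genes was 12.7 and 12.9 FPKM in shCtrl and 12.1 and 12 in shUSP9X.

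Among the members with the largest rise, the leading gene was Mrps18b (ENSMUSG00000024436, chr17:35910379-35916389), a small-subunit protein of the S18 family. It was at 67.5 and 58.5 CPM in shCtrl (63 ± 6.34, SD, n = 2) and at 121.8 and 120.6 CPM in shUSP9X (121 ± 0.826). The knockdown libraries were nearly equal and well above both controls, with a log2 fold change of 0.94 (SE 0.06, adjusted p = 1.73e-13, edgeR). Mrpl38 (ENSMUSG00000020775, chr11:116131817-116138868), a protein of the central protuberance, rose from 52.9 and 54.3 CPM to 97.7 and 101.9 CPM (log2 fold change 0.90, SE 0.06, adjusted p = 2.85e-13, edgeR). Mrps30 (ENSMUSG00000021731, chr13:118378381-118387252) rose from 37.9 and 34.8 CPM to 67 and 66.1 CPM (log2 fold change 0.87, SE 0.07, adjusted p = 2.04e-11, edgeR). For both genes the groups were far apart relative to the gap between libraries of a group. Mrpl22 (ENSMUSG00000020514, chr11:58171661-58179565), which lines the peptide exit tunnel, was at 20.1 and 18.3 CPM in shCtrl and at 29.3 and 36.6 CPM in shUSP9X. Its shUSP9X libraries differed more from each other than those of the preceding genes, and the log2 fold change was 0.77 (SE 0.11, adjusted p = 5.59e-07, edgeR).

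The other copies of the S18 family gave different values. Mrps18a (ENSMUSG00000023967, chr17:46110986-46128910) rose from 32.4 and 28.7 CPM to 52.9 and 55.3 CPM (log2 fold change 0.82, SE 0.08, adjusted p = 6.17e-10, edgeR). Mrps18c (ENSMUSG00000016833, chr5:100798627-100804471), the copy closest to the bacterial protein, was at 25.3 and 21.9 CPM in shCtrl and at 24.6 and 22 CPM in shUSP9X. Its groups overlapped, with a log2 fold change of -0.02 (SE 0.10, adjusted p = 0.892, edgeR). The difference between copies was not tested.

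Calls in the direction of a fall were few as counted. Mrpl1 (ENSMUSG00000029486, chr5:96209493-96266727), of the stalk at the tRNA exit site, was at 40.9 and 38.4 CPM in shCtrl and at 31.9 and 33.6 CPM in shUSP9X. The groups did not overlap, and the log2 fold change was -0.28 (SE 0.08, adjusted p = 0.0039, edgeR). With GC content and length corrected the sign turned, to 0.29 and 0.43 under the 2 corrections described below, and without shUSP9X replicate 1 the adjusted p was 0.0537 (edgeR). Mrpl33 (ENSMUSG00000106918, chr5:31596935-31664384) was at 47.5 and 47.1 CPM in shCtrl and at 41.4 and 43.1 CPM in shUSP9X. The groups did not overlap, by a small margin (-0.17 on the log2 scale, SE 0.07, adjusted p = 0.0443, edgeR). It stayed below 0 in every setting run, yet without any single library its adjusted p was 0.0642 to 0.242 (edgeR), and in DESeq2 it was 0.171. Under the corrections the fall was larger, at -0.29 (adjusted p = 0.00107, edgeR) and -0.28 (adjusted p = 0.00118, edgeR).

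**Figure D2:**
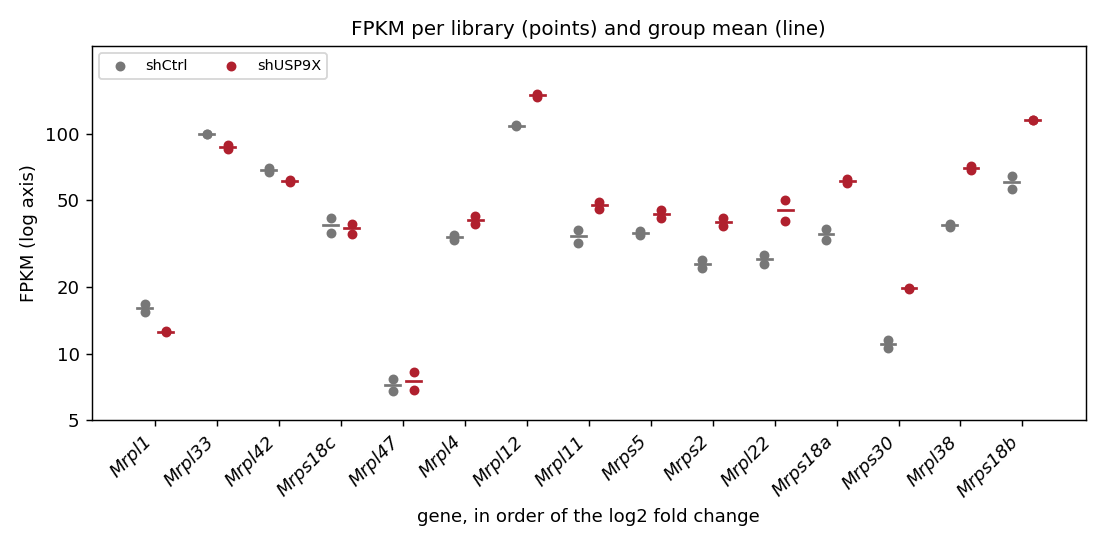
FPKM (log axis) of 15 members in each of the 4 libraries, in order of the log2 fold change from counts; points are libraries and short lines group means. On the left Mrpl1 and Mrpl33 lie lower in shUSP9X, Mrps18c and Mrpl47 overlap, and from Mrpl4 rightwards both shUSP9X points lie above both shCtrl points.

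By position in the ribosome, every group of the large subunit held calls of a rise as counted. For comparison, 33.8% of all genes tested were higher and 33.6% lower as counted. Under the corrections 35.7% and 36.1% of all genes were higher and 27.7% and 27.5% lower. All 4 proteins of the peptidyl transferase core rose, with a median log2 fold change of 0.42, from 0.31 for Mrpl4 to 0.52 for Mrpl2, but 2 of 4 were called higher under each correction (medians 0.15 and 0.17). All 8 of the central protuberance rose (median 0.42), from 0.26 for Mrpl18 to Mrpl38. Under each correction 3 of 8 were called higher (medians 0.08 and 0.12), near the share of all genes. Mrpl18 was at 98.2 and 93.9 CPM in shCtrl and 114.8 and 115.7 CPM in shUSP9X, a small but separated shift, at -0.02 and 0.02 with the corrections. Of 6 exit tunnel proteins 4 rose (median 0.58), with Mrpl47 lowest at 0.10 (adjusted p = 0.432, edgeR), and 5 were called higher under each correction (medians 0.36 and 0.33). Of 4 stalk proteins 3 rose and Mrpl1 fell, and Mrpl11, which binds the GTPase centre, was highest at 0.57, and under each correction all 4 were called higher (medians 0.24 and 0.26). Of the remaining bacterial-type large-subunit proteins 7 of 14 rose and 1 fell (median 0.21), led by Mrpl19 at 0.61, with Mrpl33 at the bottom, and under each correction 6 were higher and 5 lower (medians -0.05 and -0.01). Of the remaining mitochondria-specific ones 10 of 15 rose and 0 fell (median 0.28), from -0.14 for Mrpl42 (adjusted p = 0.101, edgeR) to Mrps30, and under the corrections 8 and 8 were higher and 2 and 1 lower (medians 0.25 and 0.27).

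The medians of the small-subunit groups lay between 0.36 and 0.49, against 0.21 to 0.58 in the large subunit, with no test of a difference. Of all genes tested, 33.8% were higher as counted, and 35.7% and 36.1% under the corrections. The shares of all genes lower were 33.6%, 27.7% and 27.5% in that order. Of 6 head proteins 4 rose (median 0.49), and Mrps2 was highest at 0.66 and Mrps9 lowest at 0.14 (adjusted p = 0.106, edgeR), and 4 and 3 were higher under the corrections (medians 0.27 and 0.19). Of 10 proteins of the body and platform 7 rose (median 0.38), from Mrps18c to Mrps5 at 0.59, and under each correction 4 were higher and Mrps28 lower (medians 0.09 and 0.12). Mrps5 was at 61.8 and 60 CPM in shCtrl and 92.5 and 90.1 CPM in shUSP9X, while its mean FPKM rose only 1.22-fold. Counts and FPKM ranked the 78 fold changes alike in general (Spearman's rho 0.971 across genes, which are not independent replicates). Of 10 mitochondria-specific small-subunit proteins 6 rose (median 0.36), from Mrps31 at -0.01 (adjusted p = 0.944, edgeR) to Mrps18b, and 6 were higher under each correction (medians 0.43 and 0.45). Mrps18a and Mrps18b, although copies of the bacterial S18 family, were counted as mitochondria-specific, and Mrps18c as bacterial-type. Over both subunits, 31 of 46 bacterial-type members rose and 2 fell (median 0.36). Of 31 mitochondria-specific members 22 rose and 0 fell (median 0.39), with 0 also lower at an unadjusted p in edgeR. DESeq2 called 0 of these 31 lower, against 3237 of all 11448 genes. Under the corrections, 24 and 23 bacterial-type members were higher and 6 and 6 lower (medians 0.14 and 0.13), and 18 and 18 mitochondria-specific members were higher and 2 and 1 lower (medians 0.40 and 0.33).

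The share of rises is given with and without promoter letters and shared exons, with no test of a difference. Among all genes tested, 33.8% rose as counted, and 35.7% and 36.1% were higher under the corrections. As counted, with at least 1 of the NRF1, GABP and YY1 matches, 25 of 37 members rose (median log2 fold change 0.35), and with none, 21 of 32 did (median 0.36). Under the corrections, 20 and 20 of the 37 were higher (medians 0.22 and 0.24), against 17 and 16 of the 32 (medians 0.14 and 0.13). The 12 members with the YY1 letters had a median of 0.50, with 8 higher, and the 57 without had a median of 0.35, with 38 higher. Under the corrections, 8 and 8 of the 12 with the YY1 letters were higher (medians 0.35 and 0.40), against 29 and 28 of the 57 without (0.13 and 0.13). With the NRF1 letters, 5 of 8 members rose as counted and 6 and 6 were higher under the corrections (medians 0.35 and 0.27), against 41 of 61 as counted and 31 and 30 under the corrections (0.13 and 0.13) without them. With the GABP letters, 17 of 25 members rose as counted and 12 and 12 were higher under the corrections (medians 0.12 and 0.12), against 29 of 44 as counted and 25 and 24 under the corrections (0.19 and 0.18) without them. With the E-box, 3 of 5 rose as counted and 2 and 2 were higher under the corrections (medians -0.05 and -0.06), against 43 of 64 as counted and 35 and 34 under the corrections (0.21 and 0.18) without it. Exons of some members overlap those of another gene, so their reads may be split. Mrpl46 and Mrps11, which start head to head on opposite strands, share 173 bases of exon, and Mrps34 overlaps Mapk8ip3 and Nme3. Whether counting used strand is not given in the sources used here. In the 15 members with an overlap of at least 10% of their exon bases or with fractional counts, 10 rose (median 0.39), against 43 of the other 63 (median 0.36). Under the corrections, 7 and 7 of the 15 were higher (medians 0.08 and 0.11), against 35 and 34 of the 63 (medians 0.19 and 0.19).

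GC content and transcript length moved with the fold change over the whole transcriptome. Across 11430 genes, Spearman's rho of the log2 fold change was 0.441 with GC content and -0.301 with length, as a description, with the transcript nearest to the FPKM length. Members were short (median 1125 bases against 2791 for all genes tested), with an ordinary GC content (51.3% against 50.4%). All genes were split into 5 classes of equal size. In the class of the shortest transcripts, the 53 members there had a median of 0.33, against 0.20 for all genes of the class. By GC content, the member median was above that of all genes in each class, from 0.09 against -0.61 in class 1 (poorest in GC, 8 members) to 0.45 against 0.21 in class 4 (17 members).

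**Figure D3:**
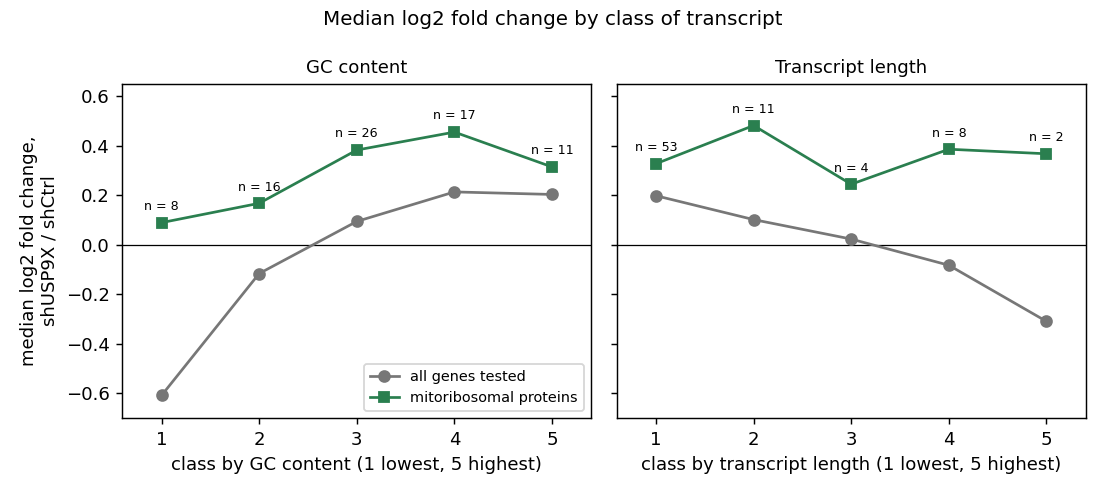
Median log2 fold change (y axis) of all genes tested and of mitoribosomal proteins in 5 classes of equal size by GC content (left) or transcript length (right), class 1 lowest, with the number of members above each point. The member line lies above that of all genes in each class, although 8 of the 10 points rest on 2 to 17 members.

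Removing both trends from the counts with an offset lowered the excess of rises and raised the number of falls. The trends were fitted over all 4 libraries and ran with the group. A technical trend and a knockdown effect tied to GC content or length therefore cannot be told apart, and the offset removes both. With the longest transcript of each gene, 42 members rose and 8 fell (35.7% and 27.7% of all genes), and the median on the log2 scale was 0.19 against 0.04 for all genes. With the transcript nearest to the FPKM length, 41 rose and 7 fell (36.1% and 27.5% of all genes), with a median of 0.18 against 0.05. Among all genes tested, 2748 of the 3864 first called higher were also called higher under both corrections. Of the 53 members first called higher, 35 were called higher under both corrections. These included Mrps18b (0.61 and 0.65), Mrpl38 (0.63 and 0.64), Mrps30 (1.12 and 1.23), Mrps18a (0.47 and 0.50) and Mrpl22 (0.49 and 0.50). The members lower under both corrections were Mrpl13, Mrpl28, Mrpl33, Mrpl34, Mrpl36, Mrpl42 and Mrps28, with transcripts of 478 (Mrpl33) to 1223 bases (Mrpl13). As counted, the members' fold changes hardly followed length (rho 0.102 across the 78 genes, as a description), and they followed GC content (rho 0.381) much as all genes did. After the first correction, rho among the members was 0.689 with length and -0.395 with GC content. After the second correction, rho among the members was 0.638 with length and -0.244 with GC content.

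**Figure D4:**
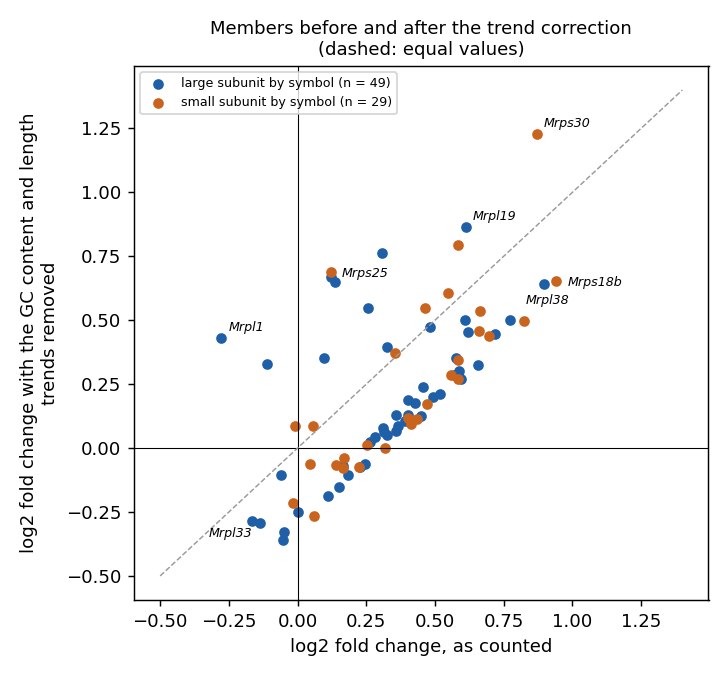
Log2 fold change of each member as counted (x axis) and after removal of the trends in GC content and length, using the transcript nearest to the FPKM length (y axis); the dashed line marks equal values. Most points lie below the line, Mrpl1 moves from below to above 0, and Mrps30, Mrpl38 and Mrps18b stay high on both axes.

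Mitoribosomal proteins known by other symbols had a median log2 fold change of 0.01, with 1 higher and 1 lower, and under the corrections 2 and 2 were higher and 1 and 2 lower (medians 0.08 and -0.14). The shares of all genes were 33.8% higher and 33.6% lower as counted. They were 35.7% and 36.1% higher and 27.7% and 27.5% lower under the corrections. Of the 5 listed, Gadd45gip1 (mL64) rose by 0.44 on the log2 scale (SE 0.07, adjusted p = 6.05e-06, edgeR) and Ptcd3 (mS39) fell by 0.20 (SE 0.05, adjusted p = 0.00121, edgeR), with Gadd45gip1 at 0.21 and 0.24 and Ptcd3 turning to 0.11 and 0.21 under the corrections. Dap3 (0.11), Chchd1 (0.01) and Aurkaip1 (-0.11) were not called (edgeR adjusted p = 0.117, 0.94 and 0.175), although Aurkaip1 was called lower under each correction (-0.45 and -0.41), and with the second Dap3 turned to -0.14 and was called lower (adjusted p = 0.0313, edgeR). Dap3, a GTP-binding protein of the small-subunit head, was at 70.5 and 66.7 CPM in shCtrl and at 75.9 and 71.8 CPM in shUSP9X.

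Of 27 factors that assemble the mitoribosome 12 rose and 1 fell, with a median of 0.28, and under each correction 9 were higher and 0 lower (medians 0.12 and 0.19). Among all genes, 33.8% were higher and 33.6% lower as counted. The corrections gave 35.7% and 36.1% of all genes higher and 27.7% and 27.5% lower. Rises among the assembly factors were not above that share under the corrections. Mrm3, which methylates the large ribosomal RNA, rose most, from 12.5 and 13.4 CPM to 28.5 and 26.3 CPM (log2 fold change 1.08, SE 0.11, adjusted p = 1.81e-09, edgeR). Ybey, an RNA endonuclease, followed at 0.81 (adjusted p = 0.00551, edgeR). Gtpbp10, a GTPase of late large-subunit assembly, fell by 0.42 (adjusted p = 4.11e-05, edgeR), and its sign turned under the corrections (0.46 and 0.57). Mterf3 was at -0.22 (adjusted p = 0.0921, edgeR).

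Of 19 factors of mitochondrial translation 9 rose and 5 fell (median 0.27), and under each correction 8 were higher and 7 lower (medians 0.18 and 0.12). As counted, 33.8% of all genes were higher and 33.6% lower. With the corrections, 35.7% and 36.1% of all genes were higher and 27.7% and 27.5% lower. Oxa1l, the insertase that receives the nascent chains, rose from 48 and 44.7 CPM to 77.8 and 76.7 CPM (log2 fold change 0.74, SE 0.06, adjusted p = 9.53e-11, edgeR), and Gatb, a subunit of the glutamyl-tRNA amidotransferase, rose by 0.57 (adjusted p = 0.00156, edgeR). The elongation GTPase Guf1 fell by 0.99 and the initiation factor Mtif2 by 0.73, and both stayed called lower with the corrections (-0.56 and -0.43 for Guf1, -0.55 and -0.31 for Mtif2). Of 17 mitochondrial tRNA synthetases 8 rose and 0 fell (median 0.14), with 0 lower at an unadjusted p in edgeR. DESeq2 called 0 of these 17 lower, against 3237 of all 11448 genes. Under the corrections 8 and 7 were higher and 0 lower under each (medians 0.19 and 0.16), and 4 were higher in all 3 fits. Fars2 led at 0.64 (0.37 and 0.42 with the corrections), then Sars2 at 0.58 (0.36 and 0.37). Nars2 (-0.23) and Rars2 (-0.12) were lowest and not called.

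Genes upstream of the mitoribosome were called in both directions as counted, with fewer falls under the corrections. Calls as counted covered 33.8% of all genes for rises and 33.6% for falls. Falls dropped for all genes too under the corrections, to 27.7% and 27.5%, with 35.7% and 36.1% higher. Of 10 genes for transcription and replication of mitochondrial DNA 3 rose and 5 fell (median -0.02), and under the corrections 4 and 3 were higher and 1 and 2 lower (medians 0.15 and 0.14). The RNA polymerase Polrmt rose by 0.37, the DNA polymerase subunit Polg2 was at 0.41 without a call (adjusted p = 0.106, edgeR), and Mterf2 and Mterf1a fell by 1.16 and 0.90. With the corrections Mterf2 stayed called lower (-0.98 and -0.92), and Mterf1a was not called (-0.31 and -0.36). Of 10 regulators of mitochondrial biogenesis 5 rose and 4 fell (median 0.13), and under the corrections 6 and 7 were higher and 1 and 1 lower (medians 0.28 and 0.37). Myc was at 109.4 and 113.6 CPM in shCtrl and at 219.8 and 218.1 CPM in shUSP9X, nearly equal within each group. It rose by 0.97 on the log2 scale (SE 0.05, adjusted p = 2.79e-16, edgeR), and the coactivator Pprc1 rose by 0.88. Gabpa, the DNA-binding subunit of GABP, went from 108 and 105.7 CPM to 51.3 and 49.5 CPM, a fall of 1.08 that shrank to -0.28 and -0.17 with the corrections. Ppargc1a was near 1 to 3 CPM in all libraries, at a log2 fold change of -1.07 (-0.14 and -0.02 with the corrections).

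All 13 mRNAs encoded in mitochondrial DNA, the templates of the mitoribosome, were called lower as counted (median -1.22 on the log2 scale). They are poor in GC (median 37.1%), and with the corrections 2 and 4 rose, 7 and 5 fell and the median was -0.08 and 0.01. The lowest were mt-Nd4 at -1.62 and mt-Atp6 at -1.61 (-0.08 and 0.05, and -0.59 and -0.33, with the corrections). The least affected were mt-Co1 at -0.71 (-0.05 and 0.03) and mt-Nd3 at -0.57 (0.69 and 1.01). Of 77 nuclear genes of the respiratory chain 46 rose and 6 fell (median 0.22), but under the corrections 19 and 20 rose and 20 and 21 fell. Of 80 cytosolic ribosomal protein genes 73 rose and 3 fell (median 0.43), and under the corrections 54 and 56 rose and 11 and 9 fell. Of 22 genes for mitochondrial import and proteolysis 13 rose and 6 fell (median 0.29), with 14 and 16 higher and 4 and 4 lower under the corrections, from the import channel Tomm40 at 0.73 and Timm17b at 0.64 to Pam16 at -0.90 and the protease Yme1l1 at -1.44 (-0.12 and 0.01 with the corrections). All genes tested had 33.8% higher and 33.6% lower as counted. Under the corrections 35.7% and 36.1% of them were higher and 27.7% and 27.5% lower. As counted, rises thus also made up most calls in several other lists, and no test of a difference between lists was made.

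**Figure D5:**
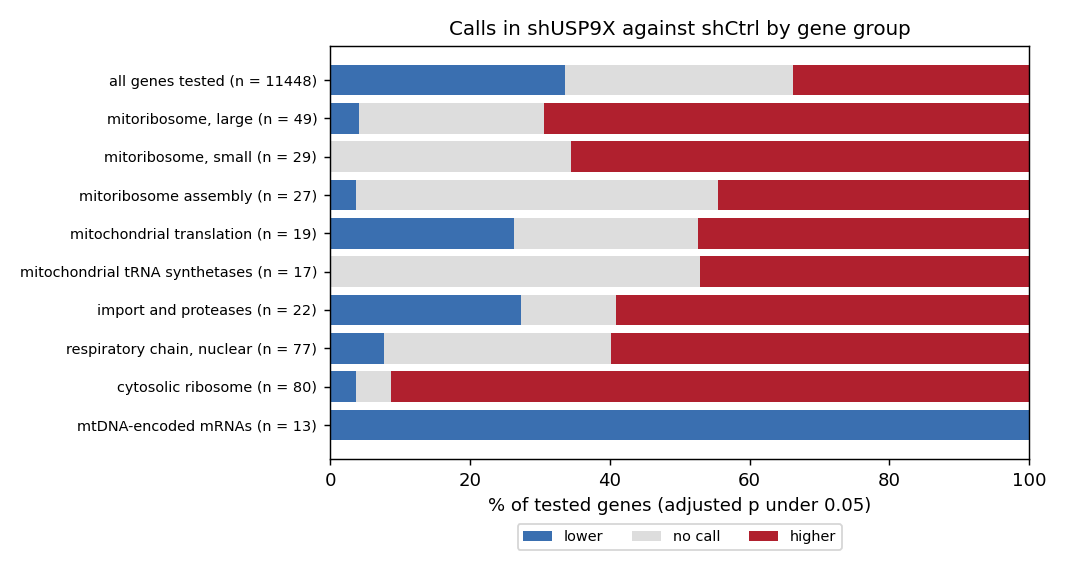
Share of tested genes called lower, not called and called higher (adjusted p under 0.05, counts as deposited, x axis in %) in all genes tested and in each gene group, with the number of genes tested. Calls of a rise make up 69.4% of the large-subunit and 65.5% of the small-subunit genes, 91.2% of cytosolic ribosomal proteins and 33.8% of all genes, and every mRNA encoded in mitochondrial DNA was called lower.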

How the data were processed

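Total RNA of 4 ID8 libraries had been enriched with oligo(dT) beads, prepared with an NEBNext Ultra kit and sequenced. The submitters' processing notes name fastp 0.18.0, Bowtie2 2.2.8, HISAT2, StringTie 1.3.1 and RSEM, and the mouse genome was GRCm38. The values deposited by the authors are estimated counts by gene, not normalized, beside FPKM. Between 6.4% and 6.69% of counts per library were not whole and were rounded.

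Genes were filtered with filterByExpr, scaled by TMM and tested with edgeR 4.0.16 (quasi-likelihood test, R 4.3.3) on the 2 groups, with Benjamini-Hochberg adjustment over 11448 genes and a threshold of 0.05. The script was tested on simulated data. Named were Usp9x, the 5 largest called rises and falls (only 2 members fell), the extremes of each role group and of each list (2 each way), the S18 copies, members with other symbols and the 3 highest and lowest FPKM. The members and lists were chosen with earlier results of these data known. GC content and length were removed by a loess offset (span 0.3), once with the longest GENCODE transcript and once with the transcript nearest to the length that counts and FPKM imply. The first was planned and the second was chosen after seeing the data. Alternatives were other scalings, filters, DESeq2 1.42.0, limma 3.58.1 on log2(FPKM + 1) and log2(FPKM + 0.1), a replicate block and leaving out each library. Trmt61b and the mitochondrial ribosomal RNAs were not analysed here. The common coefficient of biological variation between libraries was 0.0352, and replicates differed beyond counting error (chi-square of 3.41 per gene in shCtrl and 2.23 in shUSP9X).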

Additional observations from a re-analysis of the deposited data

How the results depend on the processing

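The number of members called higher was 53 and ranged from 41 to 60 over the settings. In each setting without the offset, 49 or more of the 53 were called higher, and 49 were so in all count-based ones. The 2 falls became 1 with upper-quartile scaling, without the filter on low counts and in DESeq2, 3 with library size only and on either FPKM scale, and 0 to 1 when a library was left out (the lone library is assumed to vary like the other group). With the offset they were 8, and 7 with the transcript nearest to the FPKM length.

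Replicate numbers did not pair the libraries by this check: with 2 pairs, the correlation between groups of replicate 1 minus replicate 2 over genes was -0.05. With the number as a block, 53 members were higher and 1 lower, and with block and offset 8 were lower.

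The large-subunit median (0.3269) was 0.3597 with upper-quartile scaling, 0.2981 with library size only, 0.1767 with the offset, 0.1757 with block and offset, 0.1868 with the second offset, 0.3575 by structure and 0.3179 to 0.3701 without 1 library. The small-subunit median (0.4135) was 0.4463, 0.3846, 0.2441, 0.2440 and 0.1731 in the first of these settings, in that order, 0.4253 without the filter, 0.4060 with at least 10 counts in each library, 0.3717 on log2(FPKM + 1), 0.3787 on log2(FPKM + 0.1) and 0.3974 to 0.4208 without 1 library.

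Among members and named genes called before or after, signs turned only with the offset, with block and offset or with the second offset. In that order, values were 0.2861, 0.2862 and 0.4302 for Mrpl1, 0.46, 0.46 and 0.57 for Gtpbp10, 0.11, 0.11 and 0.21 for Ptcd3 and 0.69, 0.69 and 1.01 for mt-Nd3. Of the 53 members called higher, 7 had a negative value with the offset and with block and offset, and 2 with the second offset, none of them called lower. With the offset these were Mrpl18 (-0.0201, also with the block), Mrpl20 (-0.09), Mrpl21 (-0.01), Mrpl41 (-0.11), Mrpl44 (-0.01), Mrps15 (-0.04) and Mrps23 (-0.04), and with the second Mrpl20 (-0.06) and Mrpl41 (-0.08). With the second alone, Yme1l1 (0.0059), mt-Co1 (0.0284) and mt-Nd4 (0.054) turned, and Dap3, not called as counted, was called lower (-0.14). Mrps14 (0.17 as counted, not called) was called higher with the offset (1.03) but was at -0.08 without a call with the second. Its transcript had 2999 bases (39.6% GC) in the first and 787 bases (48.2% GC) in the second. The length implied by counts and FPKM was 851 bases, far from the longest transcript. With each offset, Mrpl13, Mrpl28 and Mrps28, above 0 as counted without a call, were called lower, and Mrpl50, below 0 without a call, was called higher. The cause was not tested. With another scaling the all-gene median stayed between -0.03 and 0.03. The alternative without pseudogene symbols gave no value, as no symbol was of that kind.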
